A study of Mus musculus with 6 samples.

Results

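Cdc42, Cdc42ep3, Rac1, Rac2, Vav1, Pak1, Pak2 and Dock2 are 8 genes of Cdc42 and Rac signalling, and the accessible regions around them were examined in mouse long-term haematopoietic stem cells (LT-HSCs). A region was counted with a gene when its midpoint lay within 50 kb of an end of that gene and no end of another RefSeq protein-coding gene was nearer. The rule gave 37 of the 42632 deposited peaks. Peaks with a midpoint within 1 kb of the gene end are called gene-end peaks (10), and those farther away distal peaks (27). Of the 37, 22 lay inside one of the 8 genes. The assay was ATAC-seq, where adapters are placed by a transposase into DNA that is open, and the LT-HSCs came from C57BL/6 mice aged 10 to 16 weeks. Cells of both groups had been sorted from bone marrow as Lin-, Sca1+, cKit+, CD34- and Flt3- and held at 37 °C under 3% O2 and 5% CO2 in HBSS with 10% FBS. Confined cells (n = 3 libraries) spent 13 h in suspension, attached to fibronectin on glass during 0.5 h, stayed 2 h beneath a 5 µm ceiling and were taken off with Gentle Dissociation Reagent. Unconfined cells (n = 3) stayed in suspension for 16 h, so attachment and release cannot be told apart from confinement. The comparison asks whether squeezing changes accessibility at these genes. The design text calls the libraries biological replicates without saying that each came from its own animals, so p-values measure the spread between these libraries. A lower value can mean fewer cells with an open site or fewer insertions per cell, and these cannot be told apart in bulk libraries.

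Cdc42, Rac1 and Rac2 are small GTPases that switch between an inactive GDP-bound and an active GTP-bound form and direct actin assembly, cell shape, polarity and migration. Exchange factors such as Vav1 and Dock2, both largely restricted to blood cells, load Rac with GTP. The p21-activated kinases Pak1 and Pak2 are switched on by GTP-bound Cdc42 or Rac, and Cdc42ep3 is an effector that binds GTP-bound Cdc42 and septins. In haematopoietic stem cells, Rac proteins act in homing and retention in the marrow, and Cdc42 activity is known for its link to cell polarity and ageing.

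RefSeq promoter sequences (assembly GRCm38.p6, or mm10) were held for 5 of the 8 genes, with 6 starts. The 250 bases before the start are printed for the starts whose own peak covers part of them and carries a result: both Pak1 starts, between which the counts were divided, Dock2, whose gene-end peak was the only one of the 10 to be tested singly, and Vav1, whose strongest peak lay downstream of this start. Capitals mark GGGCGG (the core bound by SP and KLF factors), CCGGAA (an ETS core) and TGACGTCA (the cyclic AMP response element), on either strand, with overlapping matches merged.
Pak1 first start, chr7:97788291-97788540, plus strand: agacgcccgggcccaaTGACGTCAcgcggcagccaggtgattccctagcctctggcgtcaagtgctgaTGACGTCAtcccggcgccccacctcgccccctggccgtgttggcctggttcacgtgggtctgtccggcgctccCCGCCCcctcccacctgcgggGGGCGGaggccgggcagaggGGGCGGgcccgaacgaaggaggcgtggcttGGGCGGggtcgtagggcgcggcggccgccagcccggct
Pak1 second start, chr7:97842689-97842938, plus strand: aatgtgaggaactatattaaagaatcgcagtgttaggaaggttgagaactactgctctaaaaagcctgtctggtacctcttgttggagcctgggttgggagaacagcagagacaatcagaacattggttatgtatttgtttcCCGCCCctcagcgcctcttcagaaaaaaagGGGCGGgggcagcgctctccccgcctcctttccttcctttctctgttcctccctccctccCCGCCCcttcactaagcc
Dock2 start, chr11:34783906-34784155, minus strand: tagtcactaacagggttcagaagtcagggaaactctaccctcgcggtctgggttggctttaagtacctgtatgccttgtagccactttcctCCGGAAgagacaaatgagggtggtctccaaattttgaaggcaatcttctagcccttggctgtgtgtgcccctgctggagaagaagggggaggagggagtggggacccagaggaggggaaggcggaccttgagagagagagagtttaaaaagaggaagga
Vav1 start, chr17:57278850-57279099, plus strand: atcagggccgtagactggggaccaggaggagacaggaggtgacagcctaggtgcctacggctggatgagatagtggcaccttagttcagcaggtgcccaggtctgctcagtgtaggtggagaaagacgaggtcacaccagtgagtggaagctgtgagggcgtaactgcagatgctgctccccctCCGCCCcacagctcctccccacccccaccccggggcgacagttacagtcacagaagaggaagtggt
GGGCGG was found in 5 of the 6 windows of these genes and in 32.7% of the 32851 RefSeq windows of the same length. Dock2 was the window without it, and the only one of the 6 with CCGGAA, which 12.03% of all windows held. TGACGTCA lay only in the window of the first Pak1 start, at 2 places, against 1.55% of all windows with at least 1. The first Pak1 window was 74.8% G and C and the second 51.6%, with a median of 52.4% over all windows. A match of letters is a description and not a bound site. TGTGGT (RUNX factors), AAGATGGC (YY1) and the motifs of AP-1 and NRF1 were in none of the 6 windows, against 14.05%, 1.56%, 6.75% and 0.782% of all windows. The motif AGATAA, which blood cell regulators such as Gata2 bind, was also in none, against 9.99% of all windows. CACCC was in 3 of the 6 (52.0% of all), CCAAT in 2 (33.8%), and CACGTG and TATAAA in 1 each (6.02% and 12.4%). Both strands were searched for every motif.

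Total counts in peaks were 340922, 221390 and 128257 in confined libraries 1 to 3, and 304898, 1229478 and 983863 in unconfined libraries 1 to 3. The median peak of these 8 genes held 7, 5 and 2 counts in confined libraries and 6, 29 and 20 in unconfined ones. Levels are counts per 1000000 counts in all peaks of the library (CPM), and a single count was worth 2.93, 4.52 and 7.80 CPM in confined libraries and 3.28, 0.813 and 1.02 CPM in unconfined ones. Confined libraries 2 and 3 stood apart. Across all peaks, their log2(CPM + 1) correlated with unconfined libraries at r = 0.0243 to 0.04999 for library 2 and -0.0270 to -0.00727 for library 3, against 0.418 to 0.524 for confined library 1 and 0.676 to 0.824 among unconfined libraries. Of 11 LT-HSC and progenitor marker genes, 6 had a gene-end peak and Ly6a, Slamf1, Mecom, Gata2 and Tek had none. Gene-end peaks were found at 3 of 6 B cell, 1 of 7 T and NK cell, 2 of 6 erythroid, 2 of 8 myeloid and 4 of 4 megakaryocyte marker genes, and at Cd34 and Flt3, both negative in the sort. Summed CPM of the 5 B cell marker peaks was 101 to 114 in confined and 55.8 to 74.8 in unconfined libraries. The sum was 15.6 to 49.9 in confined and 47.2 to 115 in unconfined libraries at the T and NK cell peak, 26.4 to 62.4 in confined and 16.4 to 30.1 in unconfined libraries at myeloid peaks, and 187 to 230 in confined and 190 to 237 in unconfined libraries at LT-HSC peaks. It was 38.1 to 70.2 CPM in confined and 23.0 to 52.9 CPM in unconfined libraries at erythroid genes, 104 to 164 in confined and 155 to 192 CPM in unconfined libraries at megakaryocyte genes, and 39.0 to 64.5 in confined and 35.6 to 65.6 CPM in unconfined libraries at Cd34 and Flt3. The part of these marker signals in the results was not tested.

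Peaks at the ends of Cdc42, Rac1 and Pak2 had lower CPM in confined than in unconfined cells, with no overlap between the groups. The other 7 gene-end peaks overlapped between the groups. Peaks with lower CPM and no overlap were 3 of 10 here and 31.4% of all 11273 gene-end peaks, so the share at these genes was near the background. None of the 10 was higher without overlap, against 6.33% of all gene-end peaks. Over all 42632 peaks, whatever their class, 13.2% were lower and 16.8% higher with no overlap.

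The Cdc42 gene-end peak (chr4:137357048-137357747, centred 362 bp inside the RefSeq start) held 23.5, 4.52 and 7.80 CPM in confined libraries 1 to 3, against 49.2, 26.8 and 34.6 CPM in unconfined libraries. These rest on 8, 1 and 1 counts in confined and 15, 33 and 34 in unconfined libraries. Every confined value was below every unconfined one, and confined library 1 was the highest of its group. At Rac1, the ubiquitous Rac GTPase, the peak centred 45 bp from the gene end (chr5:143527637-143528336) held 23.5, 13.6 and 15.6 CPM in confined libraries, against 26.2, 36.6 and 44.7 CPM in unconfined libraries. The gap between the groups at Rac1 was narrow, with 8 counts in confined library 1 and 8 in unconfined library 1. Rac2, the Rac GTPase of blood cells, had 2 gene-end peaks. The Rac2 peak centred 110 bp from the end (chr15:78572544-78573243) held 14.7, 36.1 and 15.6 CPM in confined libraries, against 9.84, 29.3 and 23.4 CPM in unconfined libraries. The Rac2 peak 970 bp from the end (chr15:78571464-78572163) held 14.7, 27.1 and 15.6 CPM in confined libraries, against 0, 27.7 and 16.3 CPM in unconfined libraries. Both Rac2 peaks overlapped between the groups, and the 0 in unconfined library 1 allows up to 9.84 CPM, the level of 3 counts.

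Of the exchange factors, Vav1 had a peak centred 10 bp from its start (chr17:57278741-57279440) with 11.7, 27.1 and 31.2 CPM in confined libraries, against 26.2, 26.0 and 36.6 CPM in unconfined libraries. Confined library 1 alone lay below all unconfined libraries there. At Dock2 the gene-end peak (chr11:34783321-34784020, centred 235 bp inside the start) held 23.5, 40.7 and 31.2 CPM in confined libraries, against 55.8, 42.3 and 37.6 CPM in unconfined libraries. Confined libraries 1 and 3 were below the unconfined range and confined library 2 was within it. The Dock2 peak had the highest mean of the 10 gene-end peaks in confined cells, 31.8 ± 8.61 CPM, and 45.2 ± 9.42 CPM in unconfined cells (SD, n = 3 each).

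Of the effectors, Pak2 showed the largest difference. Its gene-end peak (chr16:32078855-32079554, centred 138 bp from the end) held 11.7, 18.1 and 23.4 CPM in confined libraries, against 59.0, 30.9 and 57.9 CPM in unconfined libraries. The highest confined value was below the lowest unconfined one, from 4, 4 and 3 counts in confined and 18, 38 and 57 in unconfined libraries. At the first Pak1 start the peak (chr7:97788324-97789023) held 14.7, 9.03 and 0 CPM in confined libraries, against 29.5, 14.6 and 21.3 CPM in unconfined libraries. Confined library 1 and unconfined library 2 were nearly equal there, and the 0 in confined library 3 allows up to 23.4 CPM, the level of 3 counts. Cdc42ep3 had a peak 332 bp inside its start (chr17:79354410-79355109), at 20.5, 22.6 and 15.6 CPM in confined libraries and 19.7, 22.8 and 28.5 CPM in unconfined libraries. Its neighbour 960 bp before the start (chr17:79355702-79356401) held 17.6, 22.6 and 15.6 CPM in confined libraries, against 13.1, 14.6 and 24.4 CPM in unconfined libraries, and both Cdc42ep3 peaks overlapped between the groups.

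**Figure D1:**
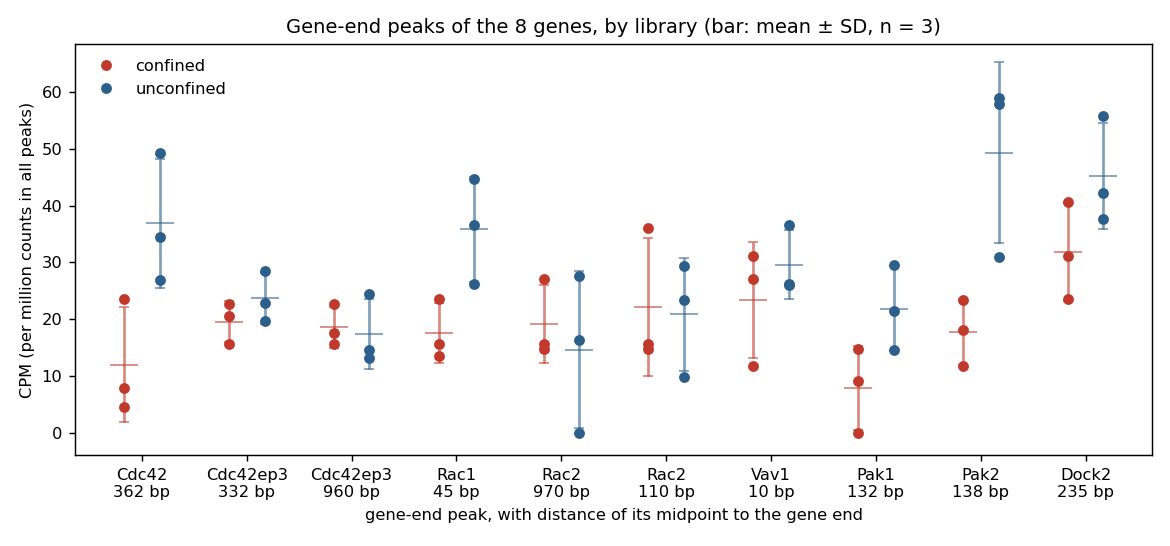
CPM (counts per 1000000 counts in all peaks) of the 10 gene-end peaks in each of the 3 confined and 3 unconfined libraries, with the mean and SD of each group; the distance from the peak's midpoint to the gene end is under each name. At Cdc42, Rac1 and Pak2 all confined points lie below all unconfined points, and the remaining peaks overlap.

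In order of mean CPM, the gene-end peaks of confined cells ran from Dock2 through Vav1, Rac2 (110 bp), Cdc42ep3 (332 bp), Rac2 (970 bp), Cdc42ep3 (960 bp), Pak2, Rac1 and Cdc42 to Pak1 at 7.90 ± 7.40 CPM. In unconfined cells they ran from Pak2 at 49.3 ± 15.9 CPM through Dock2, Cdc42, Rac1, Vav1, Cdc42ep3 (332 bp), Pak1, Rac2 (110 bp) and Cdc42ep3 (960 bp) to Rac2 (970 bp) at 14.6 ± 13.9 CPM (SD, n = 3 each). All peaks are 700 bp wide, so levels compare per length. In neither group did any pair of neighbours in the order differ by more than the larger of their SDs. Pak2 thus stood behind 6 other peaks in confined cells and before all others in unconfined cells, and Cdc42 next to last in confined and behind Pak2 and Dock2 in unconfined cells, without a test of the order.

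Peaks were tested with edgeR's quasi-likelihood test over the whole table, after a filter that keeps peaks with enough counts in at least 3 libraries. It kept 6 of the 37 peaks, 1 gene-end and 5 distal, and 9084 of all peaks. Each of the 6 met the filter in all unconfined libraries. The 3 distal peaks with higher CPM in every confined library, given below, did not pass it. The test of the 6 therefore says little about peaks that are higher in confined cells. Of those 9084, 8.21% passed an adjusted p under 0.05, 5.79% as higher and 2.42% as lower in confined cells, and of the 6 none did. The lowest adjusted p of the 6 was 0.365 in edgeR. None of the 6 had an unadjusted p under 0.05, and DESeq2 and limma-voom called none either. Fold changes of this fit are relative to the tested peaks, which held 34.8%, 24.2% and 23.6% of counts in confined libraries and 50.2%, 43.2% and 51.2% in unconfined ones. With total counts as the only scaling, the median over all 9084 tested peaks moved to -0.68 (log2), against -0.02 with TMM. The direction of 4 of the 6 peaks moved with it: 4 were above 0 with TMM and all 6 were below 0 with total counts.

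The strongest of the 6 was a distal peak inside Vav1, 11582 bp downstream of its start (chr17:57290333-57291032). It ranked 96th of 42632 peaks by mean CPM in confined cells and 167th in unconfined cells. It held 106, 49.7 and 31.2 CPM in confined libraries, against 154, 120 and 158 CPM in unconfined libraries, from 36, 11 and 4 counts and 47, 148 and 155 counts. All confined values were below all unconfined values. The log2 fold change was -0.33 (SE 0.35, edgeR adjusted p = 0.593) relative to tested peaks and -1.08 with total counts (SE 0.55, edgeR adjusted p = 0.121). In the batches shared by label, the log2 ratio of confined over unconfined CPM was -0.54, -1.22 and -2.17 in batches 1 to 3, each with 1 library per group. The Vav1 value moved to -0.92 without confined library 1, -0.88 without unconfined library 1, -0.63 without unconfined library 2 and -0.53 without unconfined library 3, and was not called in any of these.

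A distal peak 10162 bp upstream of Cdc42 (chr4:137367572-137368271) held 38.1, 18.1 and 7.80 CPM in confined libraries, against 62.3, 32.5 and 54.9 CPM in unconfined libraries. Its groups overlapped, with a log2 fold change of -0.17 (SE 0.41, edgeR adjusted p = 0.833) and -0.86 with total counts. Leaving out 1 library gave -0.87 to -0.19 at this Cdc42 peak, the lowest without confined library 1, and no call. The peak 8978 bp from the Rac2 end, outside the gene (chr15:78581412-78582111), held 41.1, 22.6 and 39.0 CPM in confined libraries, against 39.4, 33.3 and 40.7 CPM in unconfined libraries. The Rac2 groups overlapped, and the log2 fold change was 0.55 (SE 0.37, edgeR adjusted p = 0.365) relative to tested peaks and -0.10 with total counts. Upstream of Pak1 by 23150 bp, a peak (chr7:97765042-97765741) held 44.0, 13.6 and 7.80 CPM in confined libraries, against 39.4, 32.5 and 34.6 CPM in unconfined libraries. Confined library 1 was the highest of the 6 libraries at this Pak1 peak and confined library 3 the lowest. A peak inside Dock2, 46549 bp from its start (chr11:34737007-34737706), held 49.9, 4.52 and 15.6 CPM in confined libraries, against 49.2, 32.5 and 34.6 CPM in unconfined libraries. Confined library 1 was again the highest of the 6, close to unconfined library 1, and confined library 2 the lowest. Log2 fold changes at these Pak1 and Dock2 peaks were 0.29 and 0.30 relative to tested peaks (edgeR adjusted p = 0.721 and 0.707) and -0.34 at both with total counts. The Dock2 gene-end peak, described above, had 0.17 relative to tested peaks (SE 0.39, edgeR adjusted p = 0.828) and -0.48 with total counts.

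To place the 31 peaks under the filter beside these 6, the same edgeR fit was run on all 42632 peaks with no filter, where 5.74% were called in either direction and 4.27% as lower. The gene-end peak of Pak2 was called lower there (log2 fold change -1.75, SE 0.52, edgeR adjusted p = 0.0273), and no other of the 37 was called in either direction. Lower calls were 11.7% of all gene-end and 1.85% of all distal peaks, and higher calls 1.47% of all peaks. The gene-end peaks of Cdc42 (-1.45, SE 0.51, edgeR adjusted p = 0.0643) and Rac1 (-1.21, SE 0.48, edgeR adjusted p = 0.104) missed the threshold. With confined library 1 alone, where the spread comes from the unconfined libraries only, the Pak2 value was -2.19. Only 10 of all peaks were called in that fit, so its p-values say little about a single call. All 10 gene-end peaks had a log2 fold change below 0 in the fit without a filter, with values of -1.75 to -0.15 and a median of -0.72. The background is high: 73.4% of all gene-end peaks were below 0, with a median of -0.58. With confined library 1 alone the same 10 were below 0 (median -0.81), as were 73.7% of all gene-end peaks (median -0.52).

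Distal peaks of these genes lay on both sides of 0, with 15 above and 12 below and a median of 0.16, against 0.29 over all 23414 distal peaks, of which 35.2% were below 0. The 3 distal peaks with no overlap upward, given next, were chosen after their values were seen. At Vav1, 4 of 5 distal peaks were below 0, at Cdc42ep3 1 of 4 and at Pak2 neither of the pair. In CPM, 3 of the 27 distal peaks were higher in every confined than in any unconfined library, against 20.4% of all distal peaks, and 1, the Vav1 peak described above, was lower in every confined than in any unconfined library, against 7.30%. The peak 9166 bp from the Rac1 end, outside the gene (chr5:143536848-143537547), held 14.7, 40.7 and 23.4 CPM in confined libraries, against 6.56, 12.2 and 10.2 CPM in unconfined libraries. The peak 3779 bp inside Dock2 (chr11:34779777-34780476) held 26.4, 31.6 and 39.0 CPM in confined libraries, against 13.1, 18.7 and 14.2 CPM in unconfined libraries. The last of these, 26573 bp from Cdc42ep3 (chr17:79381315-79382014), held 20.5, 27.1 and 23.4 CPM in confined libraries, against 13.1, 9.76 and 8.13 CPM in unconfined libraries. These 3 had log2 fold changes of 1.05, 0.73 and 1.05 without a filter and were not called (edgeR adjusted p = 0.250, 0.352 and 0.267). They rested on 3 to 9 counts in each confined library.

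**Figure D2:**
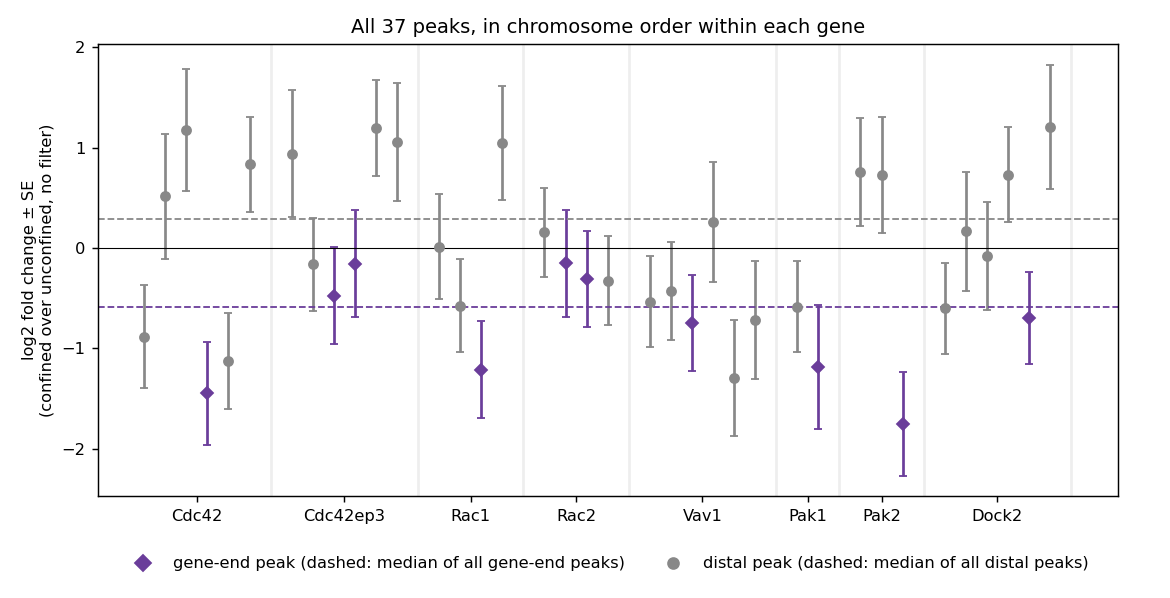
Log2 fold change (confined over unconfined) with its SE for all 37 peaks in the edgeR fit without a filter, grouped by gene and in chromosome order; diamonds are gene-end peaks, circles distal peaks, and dashed lines the medians of all gene-end (-0.58) and all distal (0.29) peaks. All 10 diamonds lie below 0, and the 27 circles lie on both sides.

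**Figure D3:**
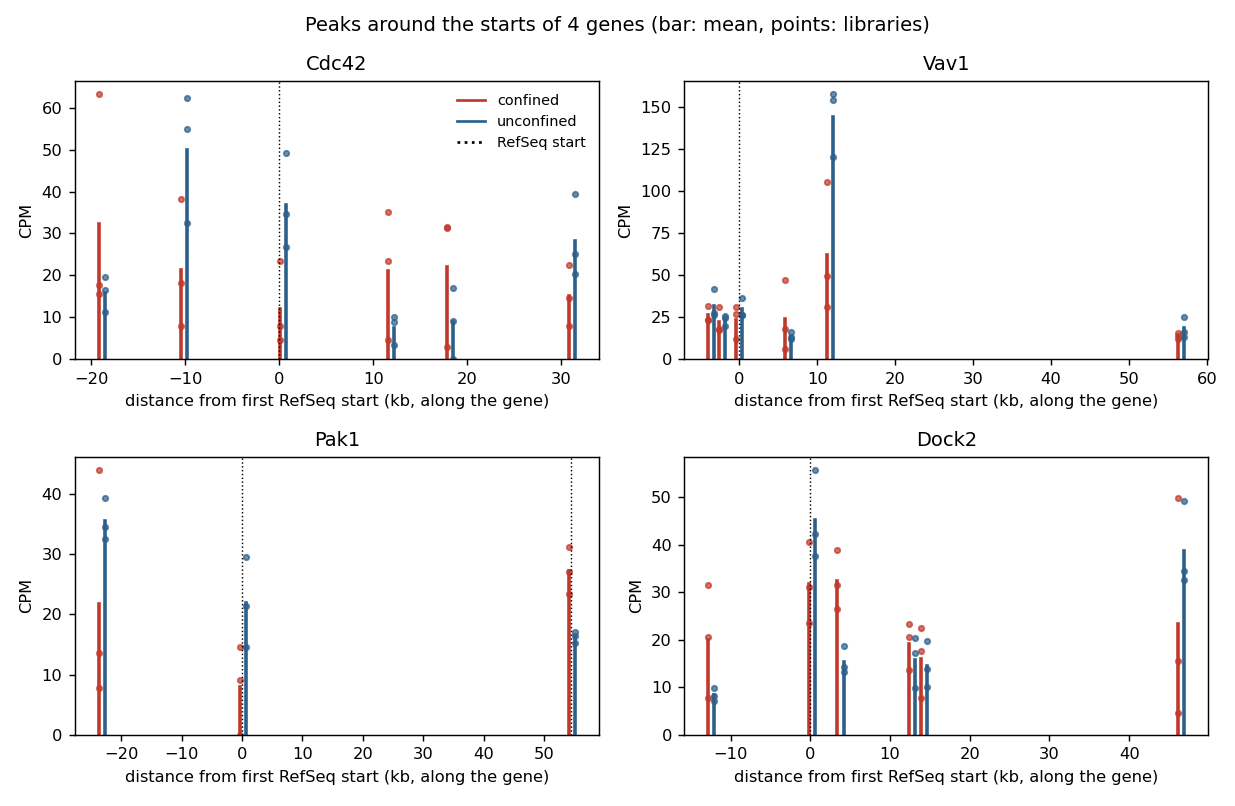
Mean CPM (bars) and library values (points) of the peaks around Cdc42, Vav1, Pak1 and Dock2, against distance from the first RefSeq start in kb along the gene; dotted lines mark RefSeq starts. The Vav1 peak about 11582 bp downstream of the start is the highest of the 4 panels, and mean CPM is lower in confined cells at the first Pak1 start and higher at the second, neither of which was called.

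Summing the counts of a gene's peaks, apart for gene-end and distal peaks, gave 16 sums, of which 11 passed the filter, 3 of gene ends and 8 of distal peaks. Distal sums of Cdc42ep3 and Pak2 were called higher in confined cells, Pak2 with a limit of the filter given below, and the other 9 did not pass. Of all 10486 tested sums 27.4% were called, 13.5% as higher and 14.0% as lower, against 18.2% of these 11. Distal sums as a class tended upward, with 23.9% called higher and a median log2 fold change of 0.49, against 0.34 over the 8 distal sums here.

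The 4 distal peaks of Cdc42ep3 together held 64.5, 154 and 109 CPM in confined libraries, against 65.6, 61.0 and 46.8 CPM in unconfined libraries. Confined libraries 2 and 3 were above all unconfined libraries and confined library 1 was within their range. The log2 fold change was 1.08 (SE 0.34, edgeR adjusted p = 0.0213), and within batches 1 to 3 the log2 ratio was -0.03, 1.34 and 1.26. With confined library 1 alone, again with the spread of the unconfined libraries only, the value was 0.19. The call was lost without confined library 2 (0.63) and without unconfined library 1, 2 or 3 (1.08, 1.08 and 0.85), with no filter (0.84) and after thinning (0.83). Both distal peaks of Pak2 together held 35.2, 63.2 and 46.8 CPM in confined libraries, against 39.4, 21.1 and 21.3 CPM in unconfined libraries. Confined library 1 was within the unconfined range here as well. The log2 fold change at Pak2 was 1.13 (SE 0.40, edgeR adjusted p = 0.0380), with log2 ratios of -0.16, 1.60 and 1.21 in batches 1 to 3. It was 0.54 with confined library 1 alone. The call was lost at 0.95 with total counts (edgeR adjusted p = 0.0690) and 1.09 with the batch number as a block (edgeR adjusted p = 0.0793). The Pak2 call was also lost without confined library 2 or 3 (0.80 and 1.12) and without unconfined library 1, 2 or 3 (1.24, 0.88 and 0.90), with no filter (0.88) and by DESeq2 (1.11). The Pak2 distal sum met the filter in every confined library, the group where it is higher, but among unconfined libraries only in library 1. Its call is therefore given as a value alone. At Pak2, the distal sum was thus above 0 while the gene-end peak, in the fit without a filter, was below 0. Over all genes the medians of tested sums had the same directions, 0.49 for distal and -0.66 for gene-end sums. The difference between the Pak2 values was not tested.

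The 5 distal peaks of Vav1 held 164, 131 and 148 CPM in confined libraries, against 233, 211 and 250 CPM in unconfined libraries. All confined values were below all unconfined ones, and most of the difference lay in the peak 11582 bp from the start. The share of all sums without overlap is not given here, so this has no background beside it. For the Vav1 distal sum the log2 fold change of -0.45 (SE 0.22) missed the threshold (edgeR adjusted p = 0.118). Total counts gave a call (-0.63, edgeR adjusted p = 0.0357), as did the fit with no filter (-0.71, edgeR adjusted p = 0.0389). With total counts, 2694 of all 10486 tested sums of both classes were called in either direction, and with no filter 9.82% of all sums were called lower. The share of distal sums called lower in these fits is not given here. In the TMM-scaled fit with the filter, where the Vav1 sum missed the threshold, it was 2.67%. Within batches 1 to 3 the log2 ratio at Vav1 was -0.50, -0.66 and -0.72. With the distal limit at 10 kb, which leaves out that peak, the Vav1 value was 0.34. The distal sums of Dock2 (0.50), Rac1 (0.43), Cdc42 (0.25), Rac2 (0.24) and Pak1 (-0.20) did not pass (edgeR adjusted p = 0.171 to 0.735). Neither did the gene-end sums of Rac2 (0.15), Cdc42ep3 (0.05) and Dock2 (-0.31, edgeR adjusted p = 0.557 to 0.920). The Cdc42, Rac1, Vav1, Pak1 and Pak2 gene-end sums, each of a single peak, were under the filter. Without a filter the Pak2 gene-end sum was called lower (-1.61, edgeR adjusted p = 0.0232, where 9.82% of all sums were lower and 3.54% higher). It is the same single peak as above. This Pak2 sum was also called with a filter on mean level (-1.43, edgeR adjusted p = 0.0258), without confined library 3 (-1.53, edgeR adjusted p = 0.0404) and without unconfined library 2 (-1.75, edgeR adjusted p = 0.0143). The Pak2 sum missed the threshold when confined library 1 (-1.06), confined library 2 (-1.48) or unconfined library 1 (-1.33) was left out. As a single peak in the filtered fits without 1 library it had -1.29 to -0.38 and was not called. In the peak fit with a filter on mean level it had -0.93 (edgeR adjusted p = 0.169) and was not called either. The Cdc42 gene-end sum was called lower without confined library 1 (-2.38, edgeR adjusted p = 0.0221) and in no other fit that held it. The same counts as a single peak, also without confined library 1, gave -1.73 and no call (edgeR adjusted p = 0.178). With so few confined counts, these peaks enter the filtered fits through the unconfined libraries, where they are higher, so these calls and misses are given as values alone. Over all sums, calls in either direction were 2735 of 10486 with the mean filter and 2033 of 11901 without confined library 3. They were 2704 of 12290 without unconfined library 2 and 4399 of 11905 without confined library 1. With total counts the Rac2 and Cdc42ep3 gene-end sums turned to -0.02 and -0.12.

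**Figure D4:**
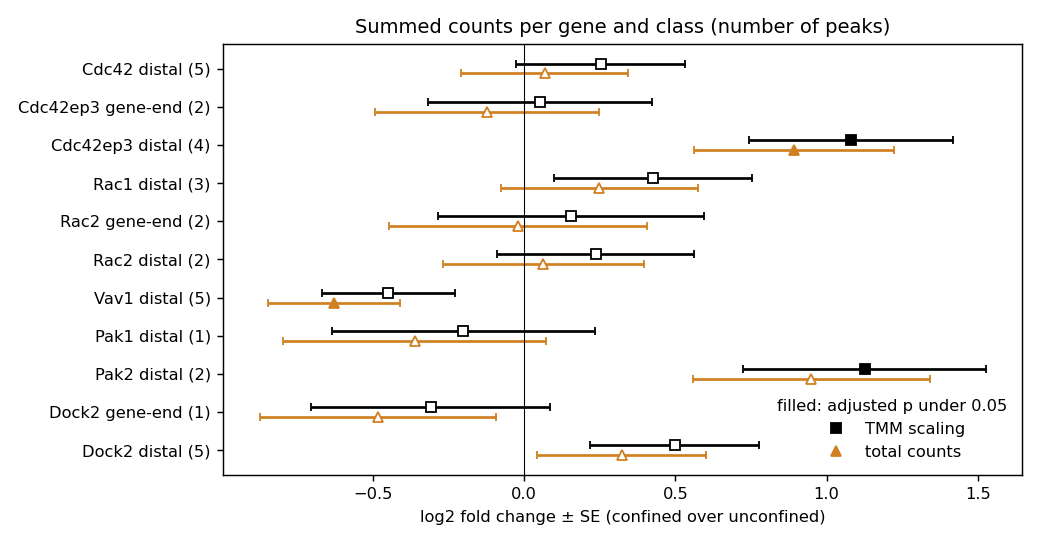
Log2 fold change (confined over unconfined) with its SE of the 11 tested sums of counts per gene and class, with the number of peaks in brackets; squares are the TMM-scaled edgeR fit, triangles the fit with total counts, and filled symbols have an adjusted p under 0.05. Distal sums of Cdc42ep3 and Pak2 are filled squares to the right of 0, and the Vav1 distal sum is a filled triangle to the left.

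Gene-end peaks made up a smaller part of the counts at these 8 genes in confined cells. Of the counts in the 37 peaks, 20.2%, 23.0% and 22.2% lay in the 10 gene-end peaks in confined libraries, against 28.6%, 29.7% and 33.1% in unconfined libraries. The exact 95% intervals were 15.8 to 25.2, 17.5 to 29.2 and 14.5 to 31.7 in confined libraries and 23.6 to 34.0, 27.0 to 32.4 and 30.1 to 36.2 in unconfined ones (Clopper-Pearson, counting error only). The groups did not overlap, with means of 21.8% ± 1.45 in confined and 30.4% ± 2.36 in unconfined cells (SD, n = 3 each). Over all 34687 gene-linked peaks the same part was 32.1% ± 4.38 in confined and 47.4% ± 2.28 in unconfined cells. The difference was -8.63 percentage points at these genes and -15.3 points over all gene-linked peaks. The distal peaks of the 8 genes took 0.0679% ± 0.00716 of all counts in confined and 0.0674% ± 0.00413 in unconfined cells, a difference within the spread. Their gene-end peaks took 0.0190% ± 0.00276 in confined and 0.0295% ± 0.00274 in unconfined cells.

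Inside the bodies of these genes, 2 more peaks lay outside the rule. One covers part of the second Pak1 start window (chr7:97842759-97843458, 54567 bp from the nearest gene end). It held 23.5, 27.1 and 31.2 CPM in confined libraries, against 16.4, 17.1 and 15.2 CPM in unconfined libraries, with no overlap. Of all peaks, 16.8% were higher in confined cells with no overlap. In the fit without a filter this Pak1 peak was at 0.49 (log2, SE 0.50) and not called (edgeR adjusted p = 0.589). Of the counts at both Pak1 starts, 5 of 13, 2 of 8 and 0 of 4 lay at the first in confined libraries, against 9 of 14, 18 of 39 and 21 of 36 in unconfined libraries. That is 38.5%, 25.0% and 0% in confined libraries, with exact 95% intervals of 13.9 to 68.4, 3.19 to 65.1 and 0 to 60.2. In unconfined libraries it is 64.3%, 46.2% and 58.3%, with intervals of 35.1 to 87.2, 30.1 to 62.8 and 40.8 to 74.5. The library intervals overlap between the groups, and this part was computed after the values were seen. Over all gene-linked peaks the gene-end part of counts was also lower in confined cells, 32.1% against 47.4%. The split at other genes with several starts is not given here. The other peak lies deep inside Dock2, nearest to Insyn2b (chr11:34395581-34396280), with 44.0, 27.1 and 46.8 CPM in confined libraries, against 3.28, 15.5 and 7.11 CPM in unconfined libraries. It was called higher without a filter (log2 fold change 1.70, SE 0.49, edgeR adjusted p = 0.0243), beside the 1.47% of all peaks that were.

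The rest of the pathway was taken from 6 lists by role, with 122 of 123 genes matched. Of their 435 peaks 82 were tested and edgeR called none, beside 8.21% of all tested peaks. An unadjusted p under 0.05 was found for 19 of the 82, or 23.2%, and for 25.1% of all tested peaks. DESeq2 called 0, and limma-voom called 2 as higher and 1 as lower, 3.66% of the 82 beside 11.1% of all tested peaks. The smallest p belonged to a peak 17162 bp from Rcc2 (chr4:140683962-140684661), a factor that binds Rac1, and to the peak near the end of Limk1 (chr5:134688516-134689215), the kinase that phosphorylates cofilin downstream of Pak. Near Rcc2 the peak held 21.0 ± 7.32 CPM in confined and 79.8 ± 18.2 CPM in unconfined cells (SD, n = 3 each). At Limk1 it held 26.9 ± 17.4 CPM in confined and 103 ± 36.4 CPM in unconfined cells (SD, n = 3 each). Their log2 fold changes were -1.15 and -1.14 (edgeR adjusted p = 0.0504 and 0.0532).

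Of the 110 tested gene sums of the 6 lists, 19 were called higher and 11 lower, 27.3% in all, which is near the 27.4% over all sums. By class they lay near the background. Of 71 distal sums 23.9% were called higher, as were 23.9% of all distal sums, with medians of 0.58 for the lists and 0.49 for all. Of 39 gene-end sums 25.6% were called lower, against 27.0% of all gene-end sums, with medians of -0.72 for the lists and -0.66 for all. Exchange factors gave 7 higher and 2 lower of 36. GTPase-activating proteins and dissociation inhibitors gave 4 and 2 of 14, effector kinases and adaptors 6 and 5 of 30, and actin nucleation factors 2 and 2 of 23. None of 3 sums of other GTPases and none of 4 of the NADPH oxidase passed. The 12 sums with the smallest p were 8 distal sums that rose and 4 gene-end sums that fell, the direction of most calls in each class over all genes. Of the exchange factors, distal sums of Vav3, the paralogue of Vav1 (1.51), Fgd6 (1.48), Elmo1, the partner of Dock proteins (1.19), Trio (1.19), Swap70 (0.97) and Prex1 (0.75) rose. Distal sums of Arhgap25, a GTPase-activating protein for Rac (1.00), and Cdc42se2, a small effector of Cdc42 (1.06), also rose. The Fgd6 sum met the filter in every confined library, where it is higher, but not in unconfined library 1. Its call in the filtered fit is given as a value alone. Without a filter the Fgd6 sum was 1.25 (edgeR adjusted p = 0.0130), where 3.54% of all sums were called higher. At Vav3 the 6 distal peaks held 185 ± 82.7 CPM in confined and 68.7 ± 3.44 CPM in unconfined cells (SD, n = 3 each). Gene-end sums of Prex1 (-1.85), Wasf2, a subunit of the WAVE complex (-1.69), Limk1 (-1.61) and Srgap2 (-1.58) fell. Each of these 4 is a single peak, and the Limk1 sum is the peak above that missed the threshold in the peak test. Confined counts were 4, 1 and 3 at Prex1 and 4, 7 and 1 at Wasf2. They were 16, 4 and 2 at Limk1 and 36, 14 and 1 at Srgap2. All 4 met the filter in the unconfined libraries, where they are higher, so their calls are given as values alone. At Srgap2 the gene-end peak held 58.9 ± 49.0 CPM in confined and 235 ± 18.0 CPM in unconfined cells (SD, n = 3 each). Without a filter the distal calls of Swap70 (0.70, edgeR adjusted p = 0.0539) and Prex1 (0.50, edgeR adjusted p = 0.0965) were lost. The edgeR adjusted p of these 12 was 0.00190 to 0.0109.

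Of the 3 tested gene-end sums, Dock2 was most alike to Relt, Cdc42ep3 to Gp9 and Rac2 to Mfsd9. Likeness is the root mean square difference of log2 CPM over the 6 libraries, each gene centred on its mean, and was 0.08, 0.09 and 0.26 for these pairs, with medians of 0.70, 0.70 and 1.21 over the 4864 other tested gene-end sums. Each partner was picked as the smallest of the 4864 values, so a value below the median follows from the choice. Gp9 is also on the megakaryocyte marker list.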

How the data were processed

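The authors deposited 1 table of raw counts per peak for 6 ATAC-seq libraries and a list of peak coordinates on mm10. SAMtools 1.14, R 4.2.0 and featureCounts are named per the submitters' processing notes. What each did, and which aligner, peak caller, duplicate handling, read shift or libraries gave the peaks, is not given in the sources used here. A list made mostly from the deeper libraries would lack sites open in confined cells alone; this was not tested.

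Peaks were linked to RefSeq genes of GRCm38.p6. That table holds no strand or exons, so no exon, intron or UTR is named; strand comes from the promoter table where it has the gene. Tests used edgeR 4.0.16 (R 4.3.3; filterByExpr, TMM, glmQLFit and glmQLFTest, two-sided, group as the only term, Benjamini-Hochberg over the whole table), for peaks and for sums per gene and class. Fits were checked on simulated data. Alternatives were DESeq2 1.42.0, limma-voom (limma 3.58.1), scaling, filters, left-out libraries, thinning and distance limits. Batch ratios add 0.5 counts. Exact intervals used SciPy 1.17.1 under Python 3.11.15.

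All tested and all gene-end peaks of the 8 genes are named, with all their tested sums. From the pathway lists, the 12 called sums, or failing calls the 2 peaks, with the smallest p are named. Genes and lists were chosen with earlier results of these data known. Libraries with the same number share an experimental batch by label. Their deviations from group means over tested peaks correlated at r = -0.0260, 0.0251 and -0.0757 in pairs 1 to 3, so the pairing rests on the labels.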

Additional observations from a re-analysis of the deposited data

How the results depend on the processing

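Of the alternative values of the tested peaks and sums of the 8 genes, 194 kept direction and side of the threshold, 17 lost the call, 2 gained one and 44 changed sign; the cause was not tested. No peak of the 8 genes was called under any setting except 1 without a filter. All peaks called numbered 746, against 2634 with total counts, 2448 with no filter, 10 with confined library 1 only, 9 after thinning and 330 to 2484 leaving out 1 library. All sums called numbered 2877, against 1391 by DESeq2, 1816 by limma-voom, 283 with confined library 1 only, 706 after thinning, 1579 with a 10 kb distal limit and 631 to 4399 leaving out 1 library.

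Sums of the 8 genes called higher numbered 2, against 1 with total counts, by DESeq2 and under the replicate block, 0 with no filter, confined library 1 only, thinning or a 10 kb limit, and 0 to 2 leaving out 1 library. Sums called lower numbered 0, against 1 with total counts, 2 with no filter, 1 with a filter on mean level and 0 to 1 leaving out 1 library. These were the Vav1 distal sum (total counts and no filter), the Pak2 gene-end sum (no filter, mean filter, and without confined library 3 or unconfined library 2) and the Cdc42 gene-end sum (without confined library 1). The replicate block lost the Pak2 distal call (1.09) and changed no other call of the 8 genes.

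Pathway peaks called lower numbered 21 with total counts, 1 with DESeq2 size factors, 15 with no filter, 1 with the mean filter, 1 by limma-voom and 0 to 9 leaving out 1 library, against 0. Those called higher numbered 4 with no filter, 4 with the mean filter, 2 by limma-voom and 2 to 20 leaving out 1 library, against 0. Pathway sums called higher (19) numbered 8 with no filter, 11 by DESeq2, 1 with confined library 1 only, 7 after thinning and 5 to 26 leaving out 1 library. Those called lower (11) numbered 20 with total counts, 4 by DESeq2, 2 by limma-voom, 2 with confined library 1 only, 4 after thinning, 4 with a 10 kb limit and 2 to 20 leaving out 1 library.

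Changes of sign, as log2 fold changes, were these. With total counts: Dock2 distal peak -0.34, Dock2 gene-end peak -0.48, Rac2 distal peak -0.10, Pak1 distal peak -0.34, Cdc42ep3 gene-end sum -0.12 and Rac2 gene-end sum -0.0206. With no filter: -0.60, -0.69, -0.32, -0.58, -0.19 and -0.0536 in that order, and distal sums of Cdc42 (-0.0029) and Rac2 (-0.0177). With confined library 1 only: Dock2 gene-end peak -1.08, Rac2 distal peak -0.0715, Cdc42ep3 gene-end sum -0.17, Rac2 gene-end sum -0.52, Cdc42 distal sum -0.0039 and Pak1 distal sum 0.34. By limma-voom: Dock2 gene-end peak -0.17 and Rac2 gene-end sum -0.0912. The replicate block gave the Dock2 distal peak -0.13, the mean filter the Cdc42ep3 gene-end sum -0.0245, thinning the Vav1 distal peak 0.59, and the 10 kb limit the Dock2 gene-end sum 0.0020 and the Vav1 distal sum 0.34. Leaving out 1 library gave -1.25 to 0.46 at the Dock2 distal peak, -0.42 to 0.60 at its gene-end peak, -0.79 to 0.30 at the Pak1 distal peak, -1.44 to 0.0661 for the Pak1 distal sum, -0.15 to 0.20 for the Cdc42ep3 gene-end sum, -0.17 to 0.39 for the Rac2 distal sum and -0.36 to 0.54 for the Rac2 gene-end sum. The median peak of the 8 genes held 2 to 7 counts in confined and 6 to 29 in unconfined libraries.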
